A study of Mus musculus with 16 samples.

Results

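A list of 9 axon sorting and adhesion genes of olfactory sensory neurons was followed by name across the arrays of the study: Kirrel2, Kirrel3, Epha5, Efna5, Pcdh10, Sema7a, Sema3a, Nrp1 and Plxna1. Of these, 8 had 1 named probe set each among the 19505 genes measured. Nrp1 had no named probe set and was not analysed here. The study exposed 24 mice of both sexes, 7 to 12 weeks old, all carrying the S100a5-tauGFP reporter, either to the odorant octanoic acid, a medium-chain fatty acid, or to filtered clean air. The mice spent 40 h singly in chambers under a flow of 3.1 L per min, and from 26 h on the stimulus came for 10 s every 20 min. Olfactory mucosa was taken from pools of 3 mice, dissociated and sorted by fluorescence, and each of the 16 sorted samples went onto a Clariom S array. The 4 groups were GFP+ cells with octanoic acid, GFP- cells with octanoic acid, GFP+ cells with clean air and GFP- cells with clean air, with 4 arrays each. Since 8 pools were made from 24 mice, the GFP+ and the GFP- sample of a pool came from the same animals. Pools are called odor pool 1 to 4 and vehicle pool 1 to 4.

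Olfactory sensory neurons that express the same odorant receptor send their axons to the same glomeruli of the olfactory bulb. In the mouse, this sorting uses cell surface molecules of 2 kinds. Some set the position of an axon along the axes of the bulb, among them the secreted semaphorin Sema3a, its receptor Nrp1 and the co-receptor Plxna1. Others act between neighbouring axons, among them the homophilic immunoglobulin proteins Kirrel2 and Kirrel3 and the repulsive pair of the receptor Epha5 and its ligand Efna5. Expression of this second set is known to follow neuronal activity, with Kirrel2 and Epha5 rising and Kirrel3 and Efna5 falling when neurons are active. The protocadherin Pcdh10 is a homophilic cadherin of olfactory axons that also depends on activity. Sema7a is a membrane-anchored semaphorin that acts at the synapse between olfactory axons and bulb neurons.

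The reporter is driven by S100a5, a gene whose transcription in these neurons follows their activity, and it also set the sorting gate, so the level of S100a5 is a check of the sort and no result. S100a5 was higher in GFP+ cells by 1.53 ± 0.52 log2 with octanoic acid and by 1.32 ± 0.22 log2 with clean air (SD, n = 4). The olfactory marker protein Omp, which defines mature neurons, averaged 18.84 log2 in GFP+ cells and 18.67 log2 in GFP- cells with octanoic acid, and 18.82 and 18.69 log2 with clean air, so both gates held mature neurons. Signals are set against a background of 6.20 log2, which is the median over the negative controls, whose 95th percentile was 10.4 log2. This 1 value serves all arrays, although the median of the controls on single arrays ran from 5.80 to 6.77 log2. With octanoic acid it was 6.21 to 6.71 log2 on GFP+ arrays and 5.80 to 6.02 log2 on GFP- arrays. The median over all genes was 7.00 to 7.02 log2 on GFP+ arrays and 7.24 to 7.39 log2 on GFP- arrays. Other cells differed between the gates. All 8 leukocyte and all 6 neutrophil markers were lower in GFP+ cells in both treatments. The summed leukocyte signal ran from 9.62 to 11.5 log2 in GFP+ cells and from 15.8 to 17.6 log2 in GFP- cells with octanoic acid, and from 9.56 to 11.1 and from 15.3 to 16.8 log2 with clean air. Of 10 immature neuron markers 7 were lower in GFP+ cells in each treatment. Of 6 microvillous and tuft cell markers, 5 were lower with octanoic acid and 6 with clean air (median -1.94 and -2.64 log2). Of 6 basal and progenitor markers 3 were lower in each treatment. Their summed signal ran from 7.49 to 7.82 log2 in GFP+ cells and from 10.5 to 13.3 log2 in GFP- cells with octanoic acid. The clean-air ranges were 7.58 to 7.85 and 10.9 to 12.5 log2. All 7 endothelial markers had a GFP+ mean below the background, but their summed signal was low and close in both gates. It ran from 7.37 to 7.69 log2 in GFP+ and from 7.60 to 7.82 log2 in GFP- cells with octanoic acid. With clean air it ran from 7.39 to 7.53 log2 and from 7.43 to 7.71 log2. The GFP+ array of odor pool 3 stood apart. Its median correlation with the other 3 of its group was 0.975, against 0.985 to 0.991 for the other 15 arrays in their own groups, and the summed signal of sustentacular markers was 16.99 log2, against 13.6 to 15.4 log2 on the other 7 GFP+ arrays. Without that pool the 5 calls made with octanoic acid held, and the differences were then 1.03 log2 for Kirrel2, 0.99 for Epha5, 2.24 for Pcdh10, 0.96 for Sema7a and -1.02 for Sema3a.

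Of the 9 genes, 7 had a promoter window of 250 bases before and 50 bases after the start in the RefSeq table for GRCm38.p6; Kirrel3 and Plxna1 did not match. The 250 bases before the start are shown for the 5 genes that differed between the sorted samples, because 4 of them moved together and Sema3a moved the other way. Capitals mark TGACG, the short core of the cAMP response element, an element through which activity acts on many neuronal genes; among the stretches shown only that of Pcdh10 holds it. The windows are chr3:45378148-45378397 on the + strand for Pcdh10, chr7:30457516-30457765 on the - strand for Kirrel2, chr9:57939862-57940111 on the + strand for Sema7a, chr5:84417383-84417632 on the - strand for Epha5 and chr5:13396534-13396783 on the + strand for Sema3a.
Pcdh10: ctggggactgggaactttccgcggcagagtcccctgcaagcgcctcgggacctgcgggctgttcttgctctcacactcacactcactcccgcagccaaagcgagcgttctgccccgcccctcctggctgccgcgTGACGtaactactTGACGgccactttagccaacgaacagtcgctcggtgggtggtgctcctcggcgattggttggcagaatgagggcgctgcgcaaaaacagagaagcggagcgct
Kirrel2: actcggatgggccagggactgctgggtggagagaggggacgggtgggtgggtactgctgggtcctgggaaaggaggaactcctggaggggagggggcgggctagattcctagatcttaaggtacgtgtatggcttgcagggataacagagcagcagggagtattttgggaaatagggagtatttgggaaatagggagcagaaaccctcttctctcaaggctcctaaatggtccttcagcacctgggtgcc
Sema7a: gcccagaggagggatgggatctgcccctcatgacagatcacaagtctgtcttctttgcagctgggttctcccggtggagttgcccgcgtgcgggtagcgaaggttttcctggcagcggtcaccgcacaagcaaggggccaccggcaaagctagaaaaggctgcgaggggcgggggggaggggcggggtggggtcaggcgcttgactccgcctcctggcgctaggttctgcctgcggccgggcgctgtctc
Epha5: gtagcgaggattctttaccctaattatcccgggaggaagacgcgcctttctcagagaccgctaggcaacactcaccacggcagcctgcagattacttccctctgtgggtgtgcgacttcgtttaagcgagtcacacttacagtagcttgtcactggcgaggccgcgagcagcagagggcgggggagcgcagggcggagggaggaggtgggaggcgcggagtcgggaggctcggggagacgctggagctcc
Sema3a: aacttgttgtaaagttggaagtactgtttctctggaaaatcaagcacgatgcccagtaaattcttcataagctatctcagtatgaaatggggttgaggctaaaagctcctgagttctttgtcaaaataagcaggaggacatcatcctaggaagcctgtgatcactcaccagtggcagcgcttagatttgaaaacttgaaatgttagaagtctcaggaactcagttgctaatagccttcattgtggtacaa
On both strands of the whole windows, TGACG was found in 2 of the 6 measured genes that have one. Pcdh10 held it at 2 places, whose first bases lie at -116 and -103 from the start, and Sema7a once, at 41 after the start. It was present in 20.8% of all 32851 windows in the table. The full element TGACGTCA, which contains TGACG on each strand, was in none of the 6 and in 1.79% of all windows. CCCNNGGG, the core of the site bound by the Ebf factors of olfactory neurons, occurred in Kirrel2 only, at 19 and 43 after the start, and in 13.7% of all windows. The shown stretches differed in base composition: G and C made up 66.4% for Sema7a, 63.2% for Pcdh10, 62.4% for Epha5, 56.4% for Kirrel2 and 40.8% for Sema3a, beside a median of 52.4% over all windows. A match of letters is a description and not a bound site.

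Of the 8 genes, 4 were higher in GFP+ than in GFP- cells of the same pool and 1 was lower, and these were the same genes with octanoic acid and with clean air. Kirrel2, Epha5, Pcdh10 and Sema7a were higher, Sema3a was lower, and Kirrel3, Efna5 and Plxna1 did not pass an adjusted p of 0.05. Counts of 4 higher and 1 lower among 8 stood against 6.26% of all genes higher and 10.9% lower with octanoic acid, and against 5.83% higher and 9.58% lower with clean air. The median difference over the 8 genes was 0.49 log2 with octanoic acid and 0.58 log2 with clean air, beside 0.11 log2 over all genes in each. At an unadjusted p under 0.05 stood 5 of the 8 with octanoic acid and 6 with clean air, against 30.3% and 27.3% of all genes. The same 4 genes were higher in GFP+ cells in all 8 pools, as were 8.79% of all genes, and Sema3a was lower in all 8, as were 11.2%. In bulk samples, fewer cells that carry a transcript and less of it per cell cannot be told apart. Markers of leukocytes, neutrophils, immature neurons, basal and progenitor cells and microvillous and tuft cells moved with the same gate. Their part in these differences was not tested. The pools of each treatment served separate comparisons against 0, with the spread estimated over all 8. When each array was centred on 10 mature neuron markers, the counts with octanoic acid were again 4 and 1, and those with clean air were 2 higher and 2 lower.

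**Figure D1:**
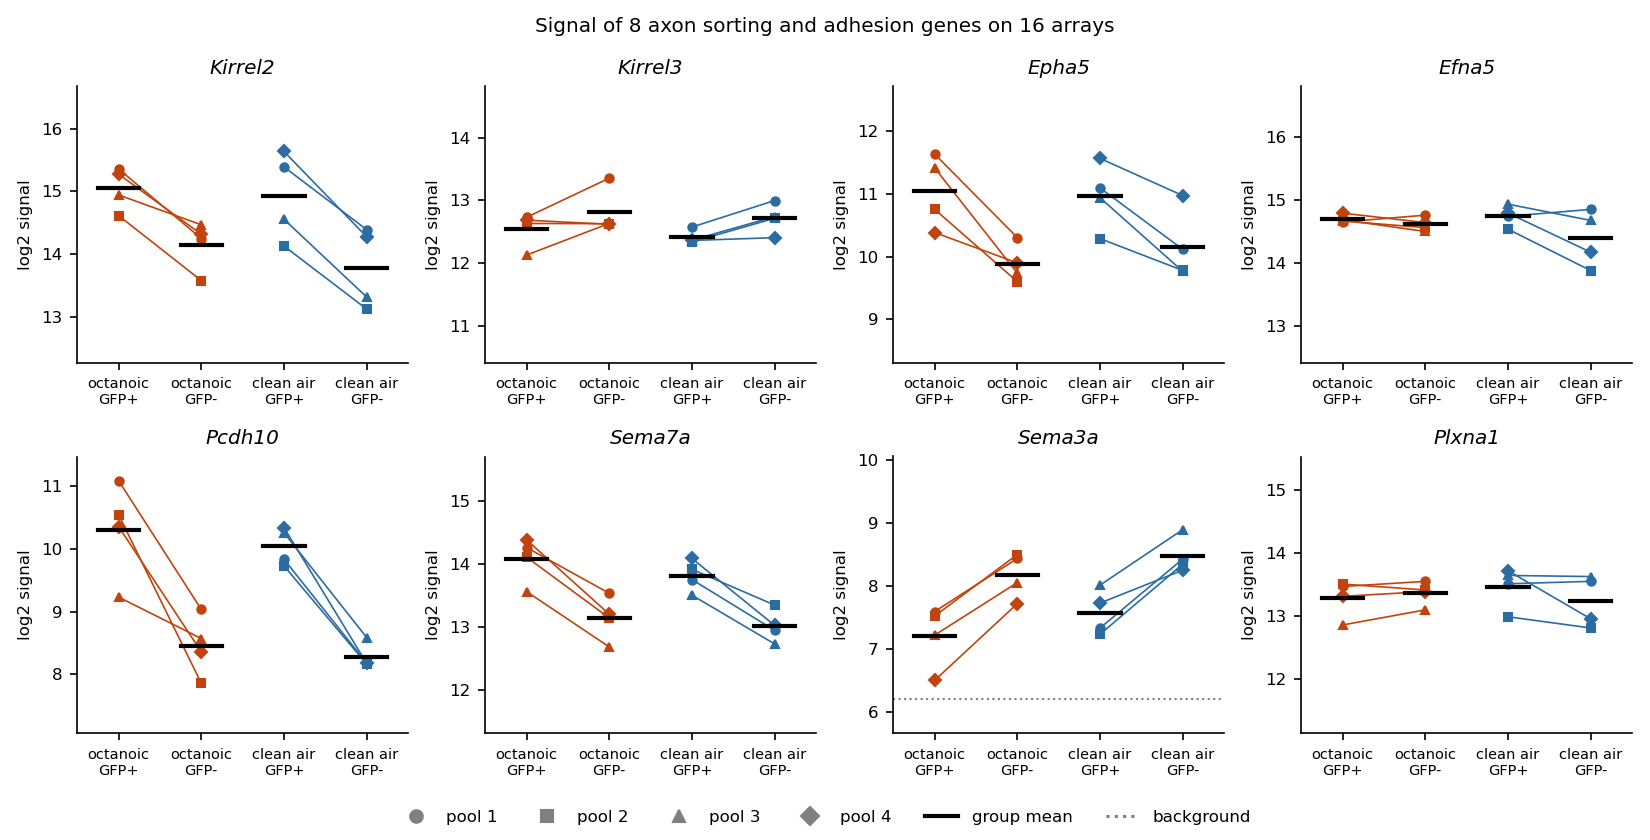
Log2 signal of the 8 measured genes on the 16 arrays, with GFP+ left of GFP- and octanoic acid left of clean air. Lines join the 2 arrays of a pool, black bars are group means, and the dotted line at 6.20 log2 in the Sema3a panel is the background; Pcdh10 lines slope down and Sema3a lines slope up in all 8 pools.

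Kirrel2, whose protein binds itself between axons, was higher in GFP+ cells of all 8 pools. With octanoic acid it measured 15.36, 14.62, 14.94 and 15.28 log2 in GFP+ cells of pools 1 to 4, against 14.25, 13.58, 14.47 and 14.32 log2 in GFP- cells. With clean air the values were 15.39, 14.13, 14.56 and 15.64 log2 in GFP+ cells, against 14.39, 13.13, 13.32 and 14.28 log2 in GFP- cells. The sorted samples did not overlap with octanoic acid and did with clean air, where pools 2 and 3 were low in both gates. The mean within-pool difference was 0.89 ± 0.29 log2 with octanoic acid (adjusted p = 0.00158) and 1.15 ± 0.18 log2 with clean air (adjusted p = 0.000249; SD, n = 4). Odor pool 3 gave the smallest difference of the 8, 0.47 log2, and without it the octanoic acid mean was 1.03 log2. Treating the arrays as unpaired left the octanoic acid difference with an adjusted p of 0.0916. The order of the group means was GFP+ with octanoic acid (15.05 log2), GFP+ with clean air (14.93), GFP- with octanoic acid (14.16) and GFP- with clean air (13.78), and the neighbours that differ by treatment lay within their spread.

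Kirrel3, the other member of the family on this list, did not pass the threshold in either treatment. In GFP+ cells it measured 12.73, 12.63, 12.13 and 12.69 log2 in odor pools 1 to 4, against 13.35, 12.63, 12.63 and 12.62 log2 in GFP- cells. In vehicle pools it measured 12.58, 12.34, 12.37 and 12.36 log2 in GFP+ cells, against 13.00, 12.72, 12.74 and 12.41 log2 in GFP- cells. The GFP+ value was the lower one in 6 of the 8 pools, and in odor pools 2 and 4 both gates were nearly equal. Over 4 pools the difference averaged -0.26 ± 0.35 log2 with octanoic acid (95% interval -0.62 to 0.09, adjusted p = 0.307) and -0.30 ± 0.17 log2 with clean air (-0.66 to 0.05, adjusted p = 0.264; SD, n = 4). Centring the arrays on mature neuron markers gave -0.69 log2 with clean air, which passed (adjusted p = 0.00648), and -0.48 log2 with octanoic acid, which did not (0.0524). Centring each array on its median gave 0.04 log2 with octanoic acid.

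The differences of these paired molecules were compared directly, since the known response of the members of a pair to activity is opposite. The GFP+ minus GFP- difference of Kirrel2 exceeded that of Kirrel3 in 8 of 8 pools, by 1.30 ± 0.31 log2 on average (SD, n = 8; exact two-sided sign-flip permutation p = 0.00781, the smallest that 8 pools allow, adjusted over 2 pairs 0.0156). It lay between 0.89 and 1.73 log2 in single pools and averaged 1.16 ± 0.39 log2 with octanoic acid and 1.45 ± 0.11 log2 with clean air. The difference of Epha5 exceeded that of Efna5 in 6 of 8 pools, by 0.77 ± 0.64 log2 (SD, n = 8; exact permutation p = 0.0312, adjusted 0.0312). That excess was 1.08 ± 0.53 log2 with octanoic acid and 0.45 ± 0.64 log2 with clean air, where vehicle pools 2 and 4 fell just below 0. Leaving out odor pool 1, 2, 3 or 4 or vehicle pool 1 or 3 gave Epha5 and Efna5 an adjusted exact p of 0.0625. Since 4 pools cannot give an exact p below 0.125, no test was made within a treatment. These are comparisons of changes and not of levels, which are not comparable between probe sets. Kirrel2 and Epha5 were already called higher, so an excess over a partner that was not called partly restates those calls. It does not show that the partner fell. Efna5 averaged 0.08 log2 with octanoic acid and 0.36 log2 with clean air, the same sign as Epha5. The planned pair of Nrp1 and Sema3a could not be formed.

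Whether the members of a pair varied together from pool to pool was also asked, over the 8 within-pool differences. Kirrel2 and Kirrel3 had a Pearson r of 0.295 (exact permutation p = 0.505, adjusted over 2 pairs 0.505) and a Spearman rho of 0.119 (exact permutation p = 0.793), and r was -0.454 without the 2 pools farthest from the median of Kirrel2. Epha5 and Efna5 had an r of -0.549 (exact permutation p = 0.161, adjusted 0.322) and a rho of -0.286 (exact permutation p = 0.501), and r was -0.853 without the 2 pools farthest from the median of Epha5. Neither relation passed, and with 8 pools only large correlations could have.

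**Figure D2:**
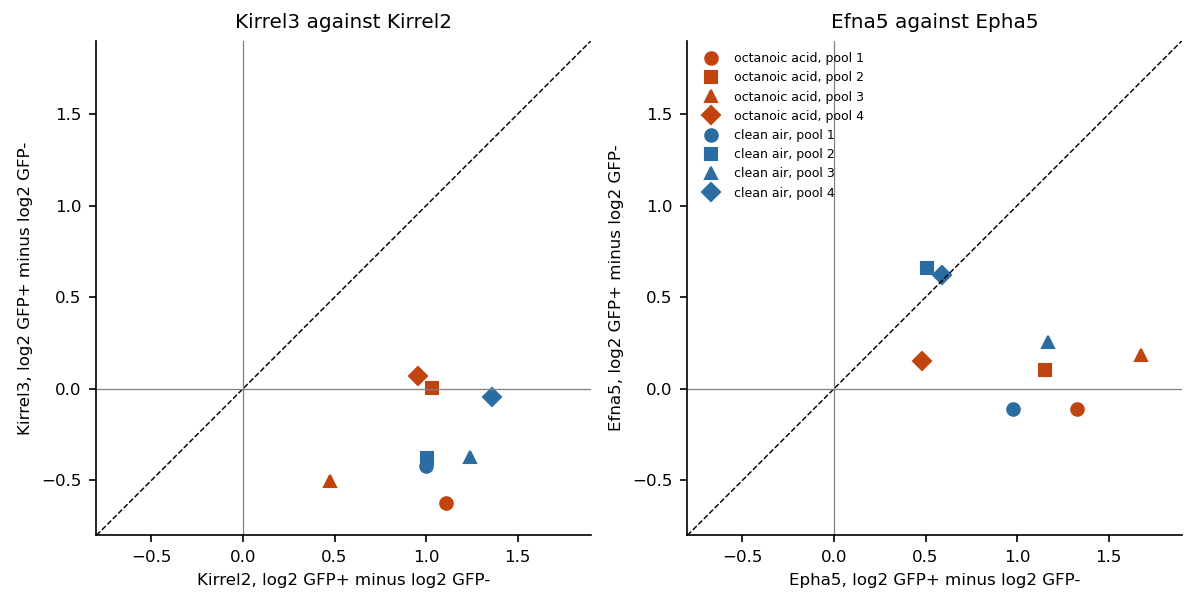
GFP+ minus GFP- log2 difference of Kirrel3 against Kirrel2 (left) and of Efna5 against Epha5 (right), 1 point per pool, with equal differences along the dashed line. All 8 points lie below the line for Kirrel2 and Kirrel3, and 6 of 8 do for Epha5 and Efna5.

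Epha5, a receptor tyrosine kinase that binds ephrin-A ligands, was higher in GFP+ cells. With octanoic acid it measured 11.63, 10.75, 11.41 and 10.38 log2 in GFP+ cells of pools 1 to 4, against 10.30, 9.60, 9.74 and 9.90 log2 in GFP- cells. With clean air it measured 11.09, 10.29, 10.94 and 11.56 log2 in GFP+ cells, against 10.12, 9.78, 9.77 and 10.97 log2 in GFP- cells. GFP+ was higher in all 8 pools; the groups did not overlap with octanoic acid and did with clean air, where both samples of vehicle pool 4 were high. On average GFP+ and GFP- cells differed by 1.16 ± 0.50 log2 with octanoic acid (adjusted p = 0.00148) and 0.81 ± 0.32 log2 with clean air (adjusted p = 0.0160; SD, n = 4). The call with clean air did not hold without vehicle pool 1 (adjusted p = 0.0737) or pool 3 (0.0871), without the pairing (0.113), with an ordinary variance per gene (0.0610) or with arrays centred on mature neuron markers (0.42 log2, adjusted p = 0.199). Its mean signal lay above 95.9% of the negative-control probe sets.

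Efna5, an ephrin-A ligand held at the membrane, was nearly level with octanoic acid and did not pass the adjusted threshold with clean air. It lay between 14.66 and 14.80 log2 in GFP+ cells and between 14.50 and 14.76 log2 in GFP- cells with octanoic acid. With clean air it lay between 14.54 and 14.94 log2 in GFP+ cells and between 13.88 and 14.86 log2 in GFP- cells, where vehicle pools 2 and 4 were low. The mean difference was 0.08 ± 0.13 log2 with octanoic acid (SD, n = 4, 95% interval -0.27 to 0.44, adjusted p = 0.769). With clean air it was 0.36 ± 0.36 log2 (SD, n = 4, 95% interval 0.00093 to 0.71, adjusted p = 0.182). Centring each array on its median gave 0.63 log2 with clean air, which passed (adjusted p = 0.0129).

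Pcdh10 had the largest difference of the 8 genes in both treatments. With octanoic acid it measured 11.08, 10.54, 9.23 and 10.35 log2 in GFP+ cells of pools 1 to 4, against 9.03, 7.86, 8.57 and 8.36 log2 in GFP- cells. With clean air it measured 9.83, 9.73, 10.25 and 10.33 log2 in GFP+ cells, against 8.18, 8.16, 8.59 and 8.17 log2 in GFP- cells. No GFP- value reached a GFP+ value of the same treatment. Over 4 pools the difference averaged 1.84 ± 0.85 log2, or 3.59-fold, with octanoic acid (adjusted p = 0.000362) and 1.76 ± 0.27 log2, or 3.39-fold, with clean air (adjusted p = 0.000566; SD, n = 4). Odor pool 3 differed by 0.66 log2, against 1.99 to 2.68 log2 in the other 3 odor pools, and without it the mean was 2.24 log2. Its mean signal lay above 91.9% of the negative-control probe sets, and all 4 group means lay below their 95th percentile.

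Sema7a, a glycolipid-anchored semaphorin, was higher in GFP+ cells of every pool, by 0.57 log2 in vehicle pool 2 to 1.18 log2 in odor pool 4. With octanoic acid it measured 14.26, 14.11, 13.56 and 14.38 log2 in GFP+ cells, against 13.54, 13.14, 12.68 and 13.20 log2 in GFP- cells. With clean air it measured 13.75, 13.92, 13.50 and 14.09 log2 in GFP+ cells, against 12.95, 13.35, 12.73 and 13.02 log2 in GFP- cells. The sorted samples did not overlap in either treatment, although odor pool 3 and vehicle pool 3 were low in both gates. On average GFP+ and GFP- cells differed by 0.94 ± 0.19 log2 with octanoic acid (adjusted p = 0.000730) and 0.80 ± 0.20 log2 with clean air (adjusted p = 0.00245; SD, n = 4). Centring on mature neuron markers lowered the clean-air difference to 0.42 log2 with an adjusted p of 0.0501.

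Sema3a, a secreted repellent made by part of the olfactory neurons, was lower in GFP+ cells of all 8 pools. With octanoic acid it measured 7.60, 7.52, 7.22 and 6.50 log2 in GFP+ cells of pools 1 to 4, against 8.44, 8.50, 8.06 and 7.72 log2 in GFP- cells. With clean air it measured 7.33, 7.23, 8.01 and 7.73 log2 in GFP+ cells, against 8.43, 8.35, 8.90 and 8.25 log2 in GFP- cells. The groups did not overlap in either treatment, and odor pool 4 was lowest in both gates. The mean difference was -0.97 ± 0.18 log2 with octanoic acid (adjusted p = 0.000813) and -0.90 ± 0.28 log2 with clean air (adjusted p = 0.00146; SD, n = 4). Its mean signal lay above 81.2% of the negative-control probe sets and below their 95th percentile.

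Plxna1, the plexin that transduces class 3 semaphorin signals together with neuropilins, did not differ beyond the spread. It lay between 12.86 and 13.51 log2 in GFP+ cells and between 13.10 and 13.55 log2 in GFP- cells with octanoic acid, and between 12.99 and 13.72 log2 and between 12.81 and 13.63 log2 with clean air. Over 4 pools the difference averaged -0.08 ± 0.14 log2 with octanoic acid (95% interval -0.44 to 0.28, adjusted p = 0.791) and 0.23 ± 0.37 log2 with clean air (-0.13 to 0.59, adjusted p = 0.408; SD, n = 4). Of the clean-air pools, pool 4 stood highest with 0.77 log2. Centring each array on its median gave 0.50 log2 with clean air, which passed (adjusted p = 0.0319).

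With octanoic acid, 4 genes had every GFP+ array above every GFP- array and 1 had every one below, where 7.25% and 10.7% of all genes were so separated. With clean air there were 2 higher and 1 lower, where 9.82% and 10.7% of all genes were.

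**Figure D3:**
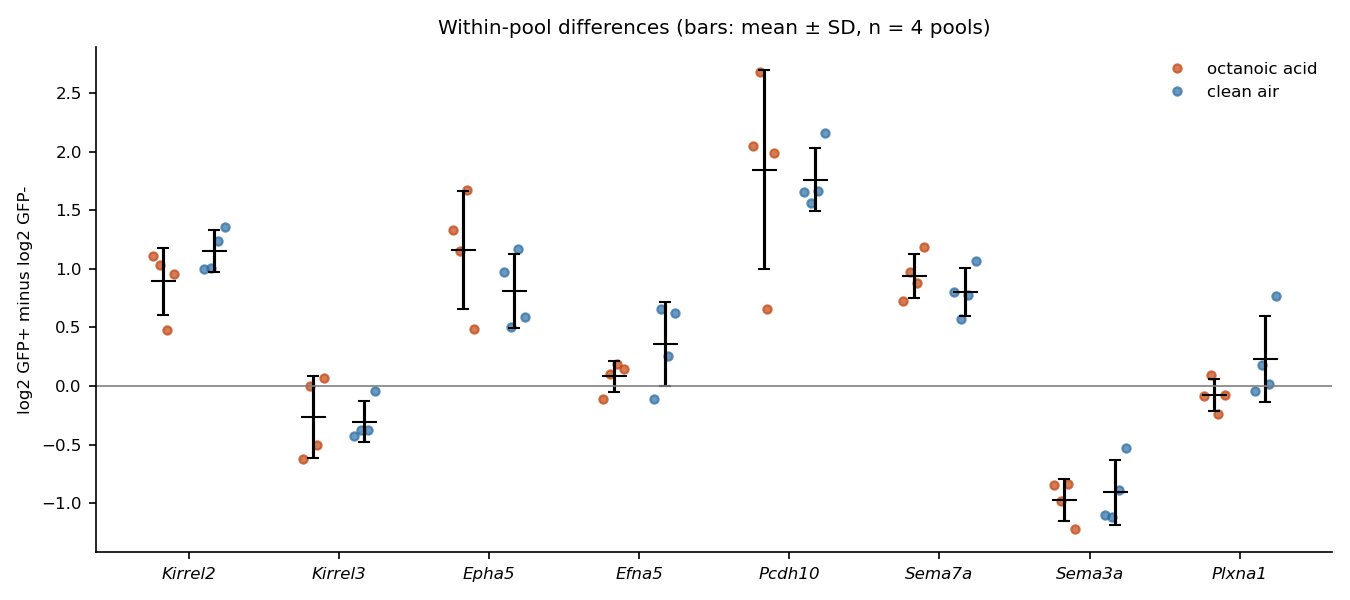
GFP+ minus GFP- log2 difference in each of the 8 pools for the 8 genes, with the mean and SD over 4 pools for octanoic acid (left of each pair) and clean air (right). Pcdh10 averages 1.84 and 1.76 log2 and Sema3a averages -0.97 and -0.90 log2. Kirrel3 (-0.26 and -0.30), Efna5 (0.08 and 0.36) and Plxna1 (-0.08 and 0.23) did not pass an adjusted p of 0.05.

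Octanoic acid changed none of the 8 genes detectably. The odor effect on the GFP+ minus GFP- difference was largest in size for Epha5, with 0.35 log2 (95% interval -0.27 to 0.97), followed by Plxna1 with -0.31 (-0.81 to 0.20), Efna5 with -0.27 (-0.78 to 0.23) and Kirrel2 with -0.26 (-0.74 to 0.22). For Pcdh10 it was 0.08 (-0.73 to 0.90), for Sema7a 0.14 (-0.32 to 0.59), for Sema3a -0.07 (-0.54 to 0.41) and for Kirrel3 0.04 (-0.47 to 0.55). The smallest adjusted p among the 8 was 0.940 in limma, and 0 of the 8 had an unadjusted p under 0.05, against 4.47% of all genes; 0% of all genes passed the adjusted threshold. The intervals of the 8 genes reached at most 0.97 log2 upward, for Epha5, and -0.81 log2 downward, for Plxna1.

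The direct comparison of octanoic acid with clean air gave the same picture within each gate. In GFP+ cells the largest difference was that of Sema3a, which averaged 7.21 ± 0.50 log2 with octanoic acid and 7.58 ± 0.36 log2 with clean air (difference -0.37, 95% interval -0.96 to 0.22, adjusted p = 0.955). In GFP- cells it was that of Kirrel2, with 14.16 ± 0.39 log2 with octanoic acid and 13.78 ± 0.65 log2 with clean air (difference 0.38, -0.30 to 1.05, adjusted p = 0.985; SD, n = 4). In neither gate had any of the 8 genes an unadjusted p under 0.05, while 3.67% of all genes had in GFP+ cells and 3.8% in GFP- cells, and 0% passed after adjustment. Octanoic acid and clean air arrays overlapped for all 8 genes in both gates, and did not overlap for 2.29% of all genes in GFP+ cells and 2.27% in GFP- cells. The upper bounds reached 1.02 log2 for Pcdh10 in GFP+ cells and 1.05 log2 for Kirrel2 in GFP- cells.

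**Figure D4:**
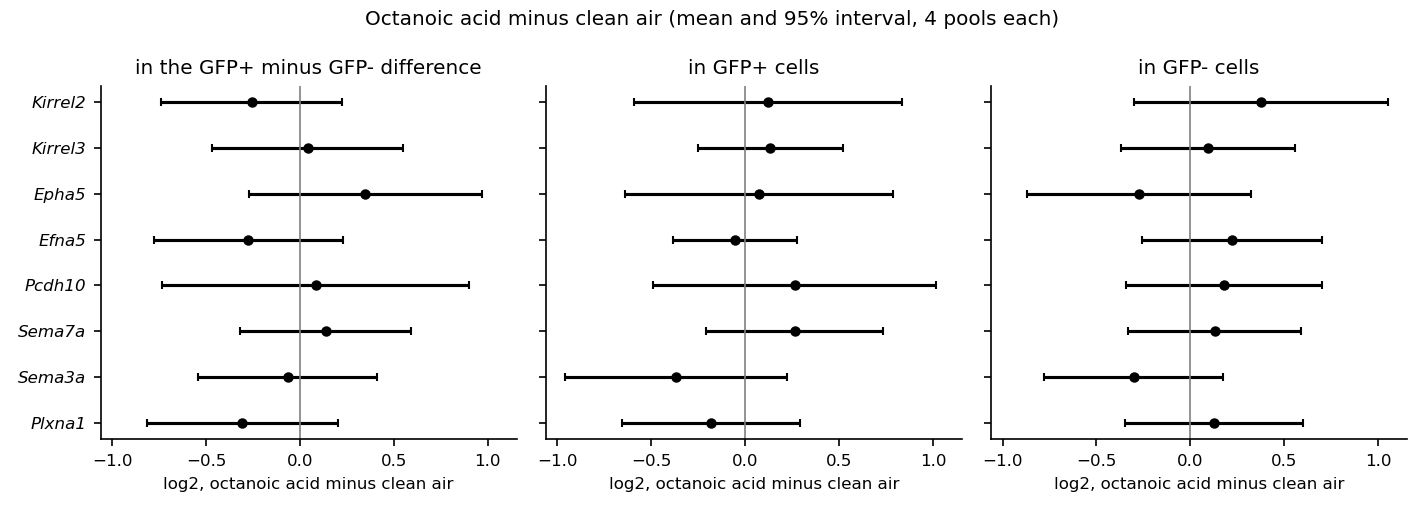
Octanoic acid minus clean air for the 8 genes, as the mean and 95% interval in log2 from limma, for the GFP+ minus GFP- difference, for GFP+ cells and for GFP- cells. All 24 intervals include 0.

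Levels also varied between pools. Over all 8 pools Kirrel2 ranged over 1.5 log2 in GFP+ cells and 1.34 log2 in GFP- cells, Sema3a 1.52 and 1.18 log2, Epha5 1.35 and 1.37 log2, and Pcdh10 1.85 and 1.18 log2. Kirrel3 spanned 0.60 and 0.95 log2, and Efna5 0.40 and 0.97 log2. The level in GFP+ and in GFP- cells of the same pool was compared for each of the 8 genes. For Kirrel2 the Pearson r over 8 pools was 0.879 (exact permutation p = 0.00709, adjusted over 8 genes 0.0346) and the Spearman rho 0.643 (exact permutation p = 0.0962, adjusted 0.256), and r was 0.650 without the 2 pools farthest from the median. For Sema3a r was 0.882 (exact permutation p = 0.00866, adjusted 0.0346) and rho 0.738 (exact permutation p = 0.0458, adjusted 0.183), but r without the 2 farthest pools was 0.325. Leaving out the farthest pools also narrows the range, so how far the Sema3a relation rests on them cannot be told. For Sema7a r was 0.799 (exact permutation p = 0.0196, adjusted 0.0523), and the other 5 genes had an r between 0.258 and 0.607 with none passing. The samples share a pool of mice and their handling, 4 pools per treatment are too few for a value within each, and no batch is given in the labels.

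Among 82 measured genes of related guidance and adhesion families, GFP+ cells had 11 higher and 6 lower when given octanoic acid, and 14 higher and 7 lower with clean air. Over all genes, 6.26% were higher and 10.9% lower with octanoic acid, and 5.83% and 9.58% with clean air, and the family counts that follow are to be read beside these shares. Of the 82, 9 were higher and 3 lower in both. The share of all genes called in both treatments was not counted, so counts given for both have no such share beside them. The medians, 0.11 log2 with octanoic acid and 0.15 log2 with clean air, stood close to the 0.11 log2 of all genes. These counts depend on the scaling: with each array centred on its median they were 36 higher and 3 lower with octanoic acid and 35 and 3 with clean air, with quantile normalization 16 higher and 3 lower and 15 and 4, and with arrays centred on mature neuron markers 11 were lower with octanoic acid and 5 higher and 19 lower with clean air. They also depend on single pools: without vehicle pool 2, 3 or 4, clean air had 7, 8 and 7 higher, with any 1 vehicle pool left out 3 or 4 lower, and without odor pool 1 or 4 octanoic acid had 3 lower. Non-clustered protocadherins, the family of Pcdh10, had 3 of 9 higher in both treatments: Pcdh8, with 1.32 ± 0.30 log2 with octanoic acid and 1.38 ± 0.28 log2 with clean air, Pcdh7, with 1.11 ± 0.13 and 1.45 ± 0.21, and Pcdh17, with 0.79 ± 0.39 and 0.58 ± 0.11 (SD, n = 4). Pcdh11x, named after its values were seen like all further genes without an SD here, was lower with octanoic acid, at -0.99 log2.

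Of 12 Eph receptors other than Epha5, 1 was higher in both treatments, Epha7, with 0.76 ± 0.09 log2 with octanoic acid and 0.75 ± 0.24 log2 with clean air (SD, n = 4), and Epha4, Ephb4 and Ephb6 were called lower with clean air. For Epha4 and Ephb6 the means of both gates lay below the background, and Ephb4 averaged 5.61 log2 in GFP+ and 6.25 log2 in GFP- cells, so no fold is given for these. Of the 12, 3 had a mean above the background. Of 7 ephrin ligands other than Efna5, Efnb3 was higher, by 0.81 ± 0.29 log2 with octanoic acid and 0.65 ± 0.23 log2 with clean air (SD, n = 4), with GFP- means of 6.58 and 6.69 log2 that lay near the background. Efnb2 was lower, by at least 1.20-fold with octanoic acid and at least 1.76-fold with clean air, with GFP+ means of 5.72 and 5.89 log2 below the background.

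Of 17 semaphorins other than Sema3a and Sema7a, 3 were higher with octanoic acid and 2 with clean air, and 0 were lower at the adjusted threshold in limma. Sema3e, a secreted semaphorin, was higher by 1.13 ± 0.22 and 1.19 ± 0.26 log2, and the transmembrane Sema6c by 0.92 ± 0.15 and 1.26 ± 0.31 log2. Sema6a made the third with octanoic acid (0.60 log2). Sema3a differed in direction from Sema3e, of the same class. Among 10 other receptors of semaphorins, 2 were higher and 3 lower with octanoic acid, and 2 were higher and 1 lower with clean air. Plxna3, a close relative of Plxna1, was higher by 0.86 ± 0.22 log2 with octanoic acid and 0.94 ± 0.13 log2 with clean air, Plxnb3 by 0.78 ± 0.36 and 0.78 ± 0.69, and the integrin Itgb1, a subunit of a receptor for Sema7a that many cell types make, was lower, at -1.09 ± 0.23 and -1.02 ± 0.23 log2 (SD, n = 4). Plxnc1 and Plxnd1 were lower with octanoic acid. Leukocyte markers were lower in the same gate, and their part in these differences was not tested.

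Kirrel, the third member of the Kirrel family, was at 0.32 ± 0.19 log2 with octanoic acid, which did not pass (adjusted p = 0.153), and at 0.55 ± 0.14 log2 with clean air, which did (adjusted p = 0.0208). Slit, Robo and netrin genes had 0 of 9 past the adjusted threshold with octanoic acid and 2 higher with clean air, Slit1 (0.62 ± 0.23 log2) and Unc5b (0.62 ± 0.28 log2; SD, n = 4). Of 16 immunoglobulin adhesion molecules and teneurins, Cntn1 was lower in both treatments, at -0.61 ± 0.42 and -0.65 ± 0.04 log2. Tenm2 was higher with octanoic acid, and Dscam and Dscaml1 were higher and Tenm3 lower with clean air. For Tenm3 the clean-air difference was at least 1.59-fold, with a GFP+ mean of 6.19 log2 at the background. With octanoic acid Tenm3 differed by -0.05 log2 and did not pass.

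**Figure D5:**
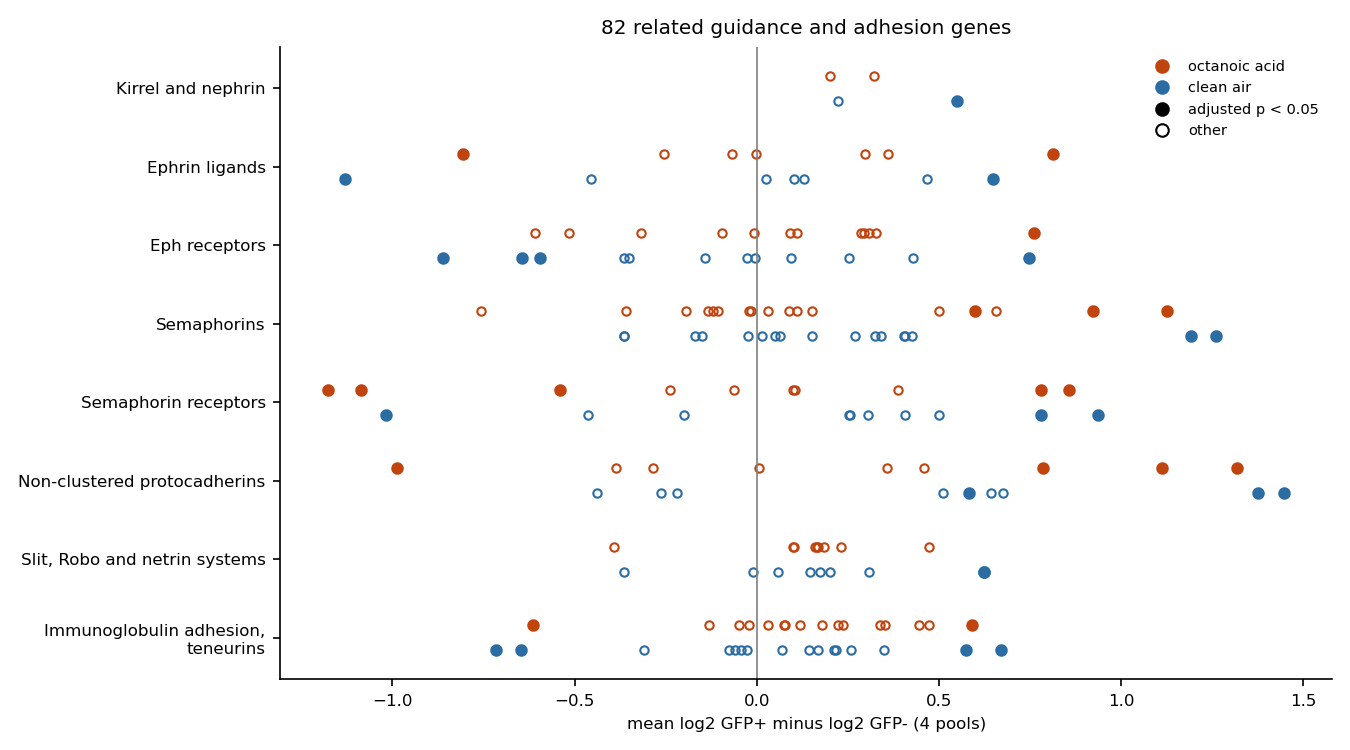
Mean GFP+ minus GFP- log2 difference over 4 pools for 82 related genes by family, octanoic acid above clean air in each row, with filled points past an adjusted p of 0.05. Of the protocadherins, Pcdh7 and Pcdh8 lie above 1 log2 in both treatments.

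The genes whose signal followed each member most closely over the 16 arrays were found by Pearson correlation among 10391 named genes above the background. The coefficients describe these arrays, which share pools and differ mainly by gate, and carry no p. Kirrel2 was followed by Tc2n (r = 0.888), Dio2 (0.873) and Stk38l (0.870), Kirrel3 by Prkag2 (0.849), Hspa1a (0.837) and Pim3 (0.830), and Epha5 by Plcxd3 (0.919), the Eph receptor Epha7 (0.898) and Zbbx (0.888). Pcdh10 was followed by Hs3st1 (0.951), Agbl2 (0.940) and the phosphodiesterase Pde1c (0.939), and Sema7a by Zfp474 (0.926), Akt2 (0.924) and Arhgap31 (0.913). Sema3a was followed by 3 genes of small ribosomal subunit proteins, Rps21 (0.924), Rps27rt (0.876) and Rps10 (0.864). Efna5 was followed by Abca3 (0.904), Patl1 (0.897) and Proser1 (0.883), and Plxna1 by Gatad2b (0.941), Add2 (0.931) and Foxk1 (0.895). The 3 nearest genes of Kirrel2, Epha5, Pcdh10 and Sema7a were all higher in GFP+ cells on average, and those of Kirrel3 and Sema3a all lower, in both treatments. All were chosen by correlation over the same arrays, so this shared direction is no separate result.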

How the data were processed

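The authors deposited a table of log2 signals for 16 arrays. Affymetrix Expression Console made it, per the submitters' processing notes; version, summarization and background correction are not given in the sources used here, and log2 was inferred from a range of 2.13 to 19.5. Precision is limited by having 4 pools a treatment. Each pool is of separate mice, so p-values measure the spread between pools.

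Of 28846 probe sets, 19572 carried 1 gene symbol, 6640 were controls and 2634 were unnamed; the brightest of several probe sets was kept, which left 19505 genes, without a filter on low values. Background was taken as the median signal of 5222 negative controls. Two-sided tests came from lmFit and eBayes of limma 3.58.1 (R 4.3.3), fitted to within-pool differences over all genes, with Benjamini-Hochberg adjustment at 0.05, and to GFP+ and GFP- arrays separately for odor effects; intervals come from the same fits. The fits were also run on simulated arrays with no spread shared within a pool, which cannot check the pairing. Pairs used exact permutation tests.

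The GFP+ and GFP- samples pair by pool because 24 mice gave 8 pools. Deviations from the group mean in both samples of a pool correlated from -0.238 in odor pool 2 to 0.389 in odor pool 1. They also stayed below 0.1 in odor pool 4 (0.0972) and vehicle pool 3 (0.0742). Odor and vehicle pools come from different mice but share numbers: the correlations of same-numbered deviations ran from 0.100 to 0.237 for the differences and from 0.100 to 0.371 in GFP+ cells, all just or clearly over 0.1, and from -0.0986 to 0.408 in GFP- cells. The 9 genes, the lists and the alternatives were chosen with earlier results of these data known. Named related genes are the up to 3 of each list with the smallest p with octanoic acid among those past the threshold in both treatments, or in 1 where none passed in both; the genes most like a member are the top 3 by Pearson r, without olfactory receptors and gene models. Alternatives were other scalings, a filter at the background, the mean of probe sets, other variance estimates, pools left out, and fits with and without pairing. The relation of levels within a pool was added after seeing the data.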

Additional observations from a re-analysis of the deposited data

Results flagged for a closer look

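In each group of 4 arrays, and in the within-pool differences of each treatment, a value was singled out when its gap to the nearest other as a share of the whole range exceeded the 95% critical value of Dixon. Of 48 such groups over the 8 genes, 5 held one; chance alone marks about 1 in 20 groups. Kirrel3 accounted for 4 of them. Its GFP+ value in odor pool 3 was 12.13 log2, against 12.63 to 12.73 log2 in the other odor pools, and this is the array with the lowest correlation with its group. Its GFP- value in odor pool 1 was 13.35 log2, against 12.62 to 12.63 log2. Its GFP+ value in vehicle pool 1 was 12.58 log2, against 12.34 to 12.37 log2. Its within-pool difference in vehicle pool 4 was -0.04396 log2, against -0.42 to -0.37 log2 in the other vehicle pools. Pcdh10 in GFP- cells of vehicle pool 3 was 8.59 log2, against 8.16 to 8.18 log2 in the other vehicle pools.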

How the results depend on the processing

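Of 136 enrichment values of the 8 genes under alternatives with octanoic acid 1 changed its side of the threshold, and 9 of 136 did with clean air; no called gene changed direction. The cause was not tested. Pcdh10 and Sema3a kept their calls under all 17 alternatives in both treatments, Kirrel2 and Sema7a under 16 or 17, and Epha5 under 17 with octanoic acid and 12 with clean air. Centring on mature neuron markers left 2 genes higher and 2 lower with clean air. Over all genes, 1221 were higher and 2126 lower with octanoic acid and 1138 and 1868 with clean air; centring on array medians gave 7791 higher and 1715 lower, and 6082 and 1571; quantile normalization gave 2587 and 2026, and 1813 and 1783; centring on mature neuron markers gave 496 and 2900, and 449 and 3984. The medians of all genes were 0.42 and 0.38 log2 with array medians and -0.10 and -0.28 log2 with mature neuron markers, against 0.11 log2 as deposited. Leaving out single pools gave 621 to 1310 genes higher with octanoic acid and 619 to 1282 with clean air; without odor pool 3 and vehicle pool 4 clean air gave 681. Epha5 minus Efna5 ran from 0.66 to 0.90 log2 with a pool left out, and Kirrel2 minus Kirrel3 from 1.24 to 1.36 log2. A replicate block on the number that odor and vehicle pools share changed no call: the smallest adjusted p of the 8 genes was 0.822 for the differences, 0.826 in GFP+ cells and 0.921 in GFP- cells. The pair of Nrp1 and Sema3a was not run. The unpaired fits of the sorted samples ended the calls of Kirrel2 with octanoic acid and of Epha5 with clean air.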
